A study of Homo sapiens with 6 samples.

Results

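The genes described here build and load the peptides that MHC class I molecules carry to the cell surface. They are HLA-E and HLA-F, 2 non-classical class I heavy chains, the class I light chain B2M, the peptide transporter subunits TAP1 and TAP2, the loading chaperone TAPBP (tapasin), the immunoproteasome subunits PSMB8, PSMB9 and PSMB10, and the trimming peptidase ERAP1. Every probe set whose platform annotation named exactly 1 of these 10 genes was taken, which gave 22 of the 22277 probe sets on the array and 10 of its 11963 singly annotated genes. All 10 genes were represented, by 1 probe set for TAP1, PSMB8, PSMB9 and PSMB10 and by up to 5 for ERAP1. No probe set was annotated to a member together with another gene.

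Expression was measured in A-498, an established line from a human renal cell carcinoma. In 3 numbered experiments, 1 culture was kept for 120 h with 1000 µM zebularine, a cytidine analogue that inhibits DNA methyltransferases, and 1 culture was kept without it (0 µM) for the same time. Both groups were grown in RPMI-1640 with 10% FCS and were split during the treatment. Each culture gave 1 Affymetrix array, so the groups are 3 zebularine arrays and 3 untreated arrays of a single line. The titles call the replicates biological, so a p-value here reflects the variation among cultures of this line and nothing wider. In RNA from a whole culture, a change in the number of expressing cells and a change in RNA per cell cannot be told apart.

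As background, proteasomes cut cytosolic proteins into peptides, and interferons replace the catalytic subunits PSMB5, PSMB6 and PSMB7 of the standard proteasome with PSMB8, PSMB9 and PSMB10. TAP1 and TAP2 form the channel that pumps the peptides into the endoplasmic reticulum, where ERAP1 shortens them and tapasin helps fit them into a heavy chain bound to B2M. Most of these genes respond to interferon through the interferon-stimulated response element, a DNA motif bound by interferon regulatory factors, and tumour cells often express them at a low level.

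The promoters are shown first because a motif recurs there in most members. RefSeq promoter windows (GRCh38.p14, 250 bases before to 50 after an annotated gene start) were at hand for 9 of the 10 genes, HLA-E being the other, in 12 windows since TAP1, PSMB8 and ERAP1 have 2 starts each. The core of the interferon-stimulated response element was searched on both strands as GAAA, any 2 bases and GAAA, counting overlapping matches separately. It was found in a window of 8 of these 9 genes. Counted by windows, that is 8 of the 12 member windows, beside 3.57% of the 35116 windows searched. The core of the gamma-activated site, TTCNNNGAA, was found in 2 of the 12 member windows (TAP1 and PSMB8, at the second start of each), and in 7.66% of the windows searched. The stretches around the first motif are given below 5′ to 3′ on the gene's own strand, with the letters of each match in capitals.
TAP1, chr6:32853806-32853855, minus strand: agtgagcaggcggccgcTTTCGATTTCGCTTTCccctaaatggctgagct
TAP2, chr6:32838771-32838814, minus strand: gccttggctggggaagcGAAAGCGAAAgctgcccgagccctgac
TAPBP, chr6:33314066-33314115, minus strand: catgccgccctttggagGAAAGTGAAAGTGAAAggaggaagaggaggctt
PSMB8, chr6:32844025-32844068, minus strand: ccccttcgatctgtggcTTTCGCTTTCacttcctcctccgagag
PSMB10, chr16:67936845-67936888, minus strand: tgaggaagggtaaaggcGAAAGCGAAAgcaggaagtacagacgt
B2M, chr15:44711356-44711405, plus strand: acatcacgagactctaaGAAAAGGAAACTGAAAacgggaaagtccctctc
HLA-F, chr6:29723261-29723304, plus strand: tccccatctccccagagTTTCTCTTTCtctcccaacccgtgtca
ERAP1, chr5:96807917-96807960, minus strand: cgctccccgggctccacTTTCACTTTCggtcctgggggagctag

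In TAP1, TAPBP and B2M 2 matches overlap into a longer run. The match begins 156 bases before the gene start in HLA-F, 144 in B2M, 134 in TAP1, 58 in TAP2, 21 in PSMB10, 20 in TAPBP and 4 in PSMB8, and just after the start in ERAP1. For PSMB8 this is the second annotated start, and the window of its first start holds neither motif. The PSMB9 window holds neither motif. PSMB9 and TAP1 are, however, divergently transcribed neighbours whose annotated starts are separated by 487 bases, and the TAP1 motif lies between them. CG dinucleotides, the sites of DNA methylation, numbered 3 to 28 per member window with a median of 17, against a median of 14 in all windows. A match says only that these letters are present.

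**Figure D1:**
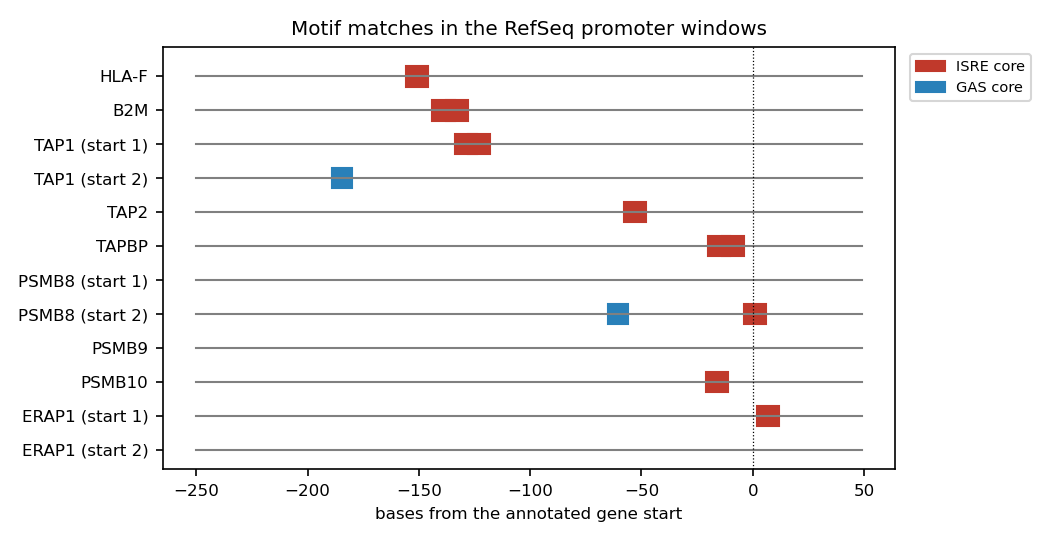
Position of motif matches in the promoter windows of 9 member genes, with bases from the annotated gene start on the horizontal axis and 1 line per window; red boxes are cores of the interferon-stimulated response element (ISRE) and blue boxes cores of the gamma-activated site (GAS). Of the 12 windows, 8 hold an ISRE core, and the PSMB9 window holds no match.

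The arrays were similar in overall signal, with medians from 118 to 141, but both arrays of experiment 3 had lower maxima (28720.5 and 31176.4 against 66289.9 to 71174.1) and lower medians of 18 spike-in probe sets (1457 and 1239 against 3551 to 4103). The epithelial and kidney markers fixed as a check were expressed: 8 of 9 passed the filter described next, PAX8, KRT8 and KRT18 among them. Of the 8, CDH6 fell with zebularine, at 174.5, 102.8 and 209.1 with it against 1407.4, 2209 and 584.4 without (log2 difference -2.85; limma, adjusted p = 0.0206), and the others were not called. Of 10 leukocyte markers, only FCER1G passed, and PTPRC, which marks all leukocytes, stayed between 9.8 and 56. The summed leukocyte signal was 415 to 603 on zebularine arrays and 351 to 508 on untreated arrays, and that of 6 fibroblast markers, of which only COL1A1 passed, 488 to 775 and 313 to 492. The part of such markers in the results was not tested.

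Differences were taken on the scale log2(signal + 16.34), and testing was limited to probe sets with a signal of at least 78.6 on 3 or more of the 6 arrays. By that filter 18 of the 22 probe sets were tested, at least 1 for each gene, out of 13545 on the array. No member probe set changed at an adjusted p under 0.05 in limma without a block, where 0.62% of all tested probe sets did (0.325% higher and 0.295% lower). Only TAP1 had an unadjusted p under 0.05, 1 member or 5.56%, against 12.6% of all tested probe sets. The same numbered arrays are paired, and with the experiment as a block limma again called no member, against 4.22% of all tested probe sets (1.9% higher and 2.32% lower), with 3 members at an unadjusted p under 0.05 (TAP1, TAPBP and 1 of 2 for B2M), or 16.7% against 20.7%. Of the 18 log2 differences, 12 were above 0 and 6 below, with a median of 0.17, against a median of -0.01 and 49.2% above 0 over all tested probe sets. These counts hold 1 HLA-F probe set that passed the filter through its zebularine arrays alone.

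**Figure D2:**
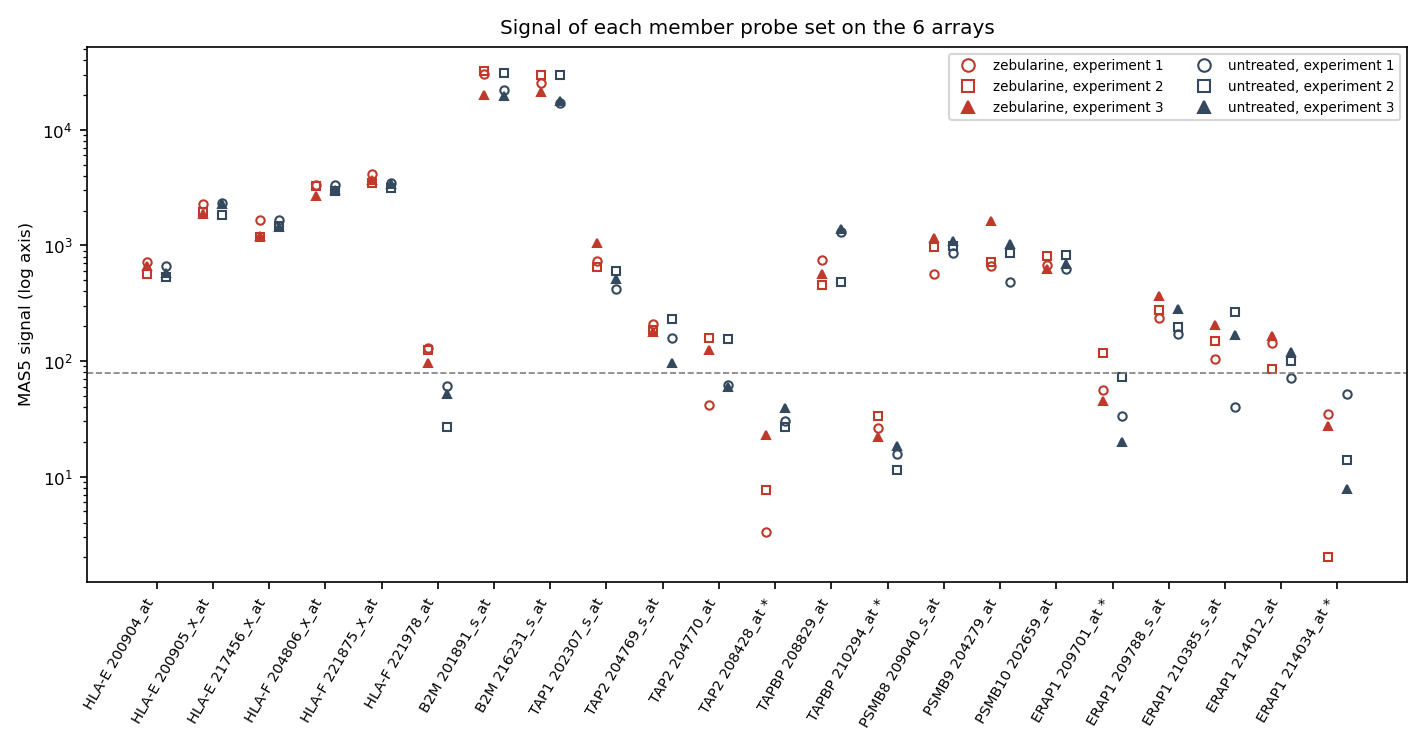
MAS5 signal (log axis) of the 22 member probe sets, with the 3 zebularine arrays in red left of the 3 untreated arrays in dark blue and symbols for the experiment; the dashed line is the filter at 78.6 and asterisks mark the 4 probe sets that were not tested. Zebularine and untreated points overlap for 15 of the 18 tested probe sets, and TAP1 and 2 HLA-F probe sets are separated.

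TAP1 gave the smallest p among the members without the block, and TAPBP with it (unadjusted p = 0.0224 for TAP1 and 0.0167 for TAPBP in limma with the block). Its probe set 202307_s_at read 736.5, 649.8 and 1042.9 on the zebularine arrays of experiments 1, 2 and 3, against 415.7, 602.9 and 512.3 on the untreated arrays. All 3 zebularine values lay above all 3 untreated values, a separation seen for 3 of the 18 members (16.7%) and for 8.71% of all tested probe sets. Of these 3, HLA-F 221978_at passed the filter only through its zebularine arrays, which partly fixed its place in the count. No tested member was separated the other way, against 8.88%. Of the untested probe sets, 208428_at of TAP2 was separated downward and 210294_at of TAPBP upward, both with all signals under the filter. The mean was 810 ± 207 with zebularine and 510 ± 93.6 without (SD, n = 3), a log2 difference of 0.64 ± 0.28 (standard error; limma, adjusted p = 0.368). Its unadjusted 95% interval ran from 0.04 to 1.23. The block lowered the adjusted p of limma to 0.161, the smallest over all alternatives, the largest being 0.874. Standard errors and intervals here and below are from limma without the block unless stated, and so leave out the pairing.

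TAP2, the partner subunit, was dimmer and varied more. Its probe set 204769_s_at read 208.1, 183.8 and 179.8 with zebularine, against 158.9, 230 and 96.9 without. The untreated values spanned the zebularine ones, and the log2 difference was 0.28 ± 0.37 (limma, adjusted p = 0.798). A second probe set, 204770_at, read 41.7, 157.1 and 123.9 with zebularine, against 62.6, 155 and 59.3 without, a difference of 0.15 ± 0.56 (limma, adjusted p = 0.937). Probe set 208428_at stayed under 40 on all 6 arrays, at 3.3, 7.7 and 23.1 with zebularine against 30.2, 26.7 and 39.2 without, and was not tested.

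TAPBP stood at the other end of the list. Probe set 208829_at read 748, 458.6 and 571.1 with zebularine, against 1297.6, 483.9 and 1392.8 without. The untreated array of experiment 2 was as low as the zebularine arrays, so the groups overlapped, while each zebularine value lay below its own untreated partner. The log2 difference was -0.71 ± 0.37 (adjusted p in limma = 0.468, or 0.142 when blocked by experiment). The adjusted p ran from 0.084 to 0.924 over the limma alternatives, and the difference was -1.02 without experiment 2 and -0.43 without experiment 3. The other TAPBP probe set, 210294_at, was not tested; its signals were 21.9 to 33.6 with zebularine and 11.3 to 18.4 without.

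The 3 immunoproteasome subunits did not share a direction. PSMB9, which replaces PSMB6, read 664.9, 719.2 and 1608.5 with zebularine, against 486.1, 855.5 and 1026 without. The zebularine array of experiment 3 held the highest value of the 6, and the groups overlapped. The log2 difference was 0.28 ± 0.37 (limma, adjusted p = 0.804). It was -0.12 without that array.

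PSMB8, which replaces PSMB5, read 562.7, 969.8 and 1153.5 with zebularine, against 856.5, 991.7 and 1087.1 without. The zebularine arrays held both the lowest and the highest value, and the difference was -0.18 ± 0.29 (limma, adjusted p = 0.844). PSMB10, which replaces PSMB7, read 674.7, 809.5 and 627 with zebularine, against 624.5, 831.2 and 683.9 without. That is a difference of -0.02 ± 0.25 (limma, adjusted p = 0.987), with an unadjusted 95% interval from -0.56 to 0.53.

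Their constitutive counterparts were not called either. PSMB5 averaged 1845 ± 529 with zebularine and 2199 ± 336 without, PSMB6 3985 ± 1217 and 3438 ± 1467, and PSMB7 5963 ± 1411 and 5306 ± 969 (SD, n = 3 each). The log2 differences were -0.28, 0.25 and 0.16 (limma, adjusted p = 0.717, 0.801 and 0.852).

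B2M was among the brightest probe sets of every array. Probe set 201891_s_at read 30111.9, 32009.1 and 19963.2 with zebularine, against 22267.9, 31007.6 and 19627.2 without, and 216231_s_at read 25390.3, 29819.5 and 21239.1 against 17150, 29832.3 and 17760.1. The first was lowest on the 2 arrays of experiment 3, whose maxima were also low, and the second was lowest on untreated arrays 1 and 3. The part of the array scale in these values was not tested, and the groups overlapped for both. The log2 differences were 0.17 ± 0.28 and 0.27 ± 0.28 (limma, adjusted p = 0.846 and 0.729). Quantile normalization, which gives all arrays the same distribution, moved them to 0.33 and 0.45, still without a call (limma, adjusted p = 0.302 and 0.259, within 0.302 to 0.992 and 0.236 to 0.97 over the alternatives). With arrays left out the differences ran from 0.028 to 0.38 and from 0.13 to 0.53.

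In ranks, which do not depend on an array's scale, 201891_s_at stood 53rd, 71st and 58th on the zebularine arrays of experiments 1, 2 and 3, against 142nd, 98th and 107th on the untreated arrays. For 216231_s_at the ranks were 80, 88 and 43 with zebularine, against 195, 104 and 134 without. B2M therefore ranked higher with zebularine in each experiment, an order looked at after the values were seen and not tested.

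HLA-E, which presents signal peptides of other class I chains to natural killer cells, had probe sets that disagreed in sign. The probe set 200904_at read 723.5, 562 and 661.4 with zebularine, against 656.6, 537 and 577 without, higher in each experiment by at most 0.19 on the log2 scale. The probe sets 200905_x_at and 217456_x_at, whose type may also hybridise to related genes, had log2 differences of -0.08 ± 0.24 and -0.19 ± 0.25, beside 0.13 ± 0.25 for 200904_at (limma, adjusted p = 0.915, 0.798 and 0.872). The groups overlapped for all 3.

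HLA-F gave the largest log2 difference of the list at its dimmest probe set. There 221978_at read 129.7, 123.9 and 96 with zebularine, against 60.4, 27.1 and 52.3 without. The groups did not overlap. All untreated values lay under the filter of 78.6, so this probe set was tested only because its zebularine values were high, and its values are given as a description. The log2 difference of 1.11 depended on the pseudocount and was 0.71 with a larger and 1.31 with a smaller one.

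The bright HLA-F probe set 221875_x_at read 4178.6, 3483.7 and 3651.2 with zebularine, against 3479.5, 3149.9 and 3365.7 without, also without overlap, a difference of 0.17 ± 0.23 (limma, adjusted p = 0.799). The other, 204806_x_at, read 3347.6, 3240.6 and 2655.6 against 3322.2, 2932.3 and 2993.8, a difference of -0.01 ± 0.23 (limma, adjusted p = 0.996). Both are of the type that can bind related class I transcripts.

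ERAP1 was higher with zebularine in every experiment at its brightest probe set. The probe set 209788_s_at read 235.9, 276 and 366 with zebularine, against 172.7, 197.7 and 279.1 without. The ratios of 1.37, 1.40 and 1.31 in experiments 1, 2 and 3 were close to each other, and the groups overlapped only through the untreated array of experiment 3. The log2 difference was 0.41 ± 0.31 (limma, adjusted p = 0.623). The other tested probe sets, 214012_at and 210385_s_at, had differences of 0.36 ± 0.43 and 0.20 ± 0.54 (limma, adjusted p = 0.781 and 0.911) and each was higher with zebularine in experiments 1 and 3 and lower in experiment 2. Of the untested ones, 209701_at reached 45.4 to 117.9 with zebularine and 19.8 to 72 without, higher in each experiment, and 214034_at stayed under 55.

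**Figure D3:**
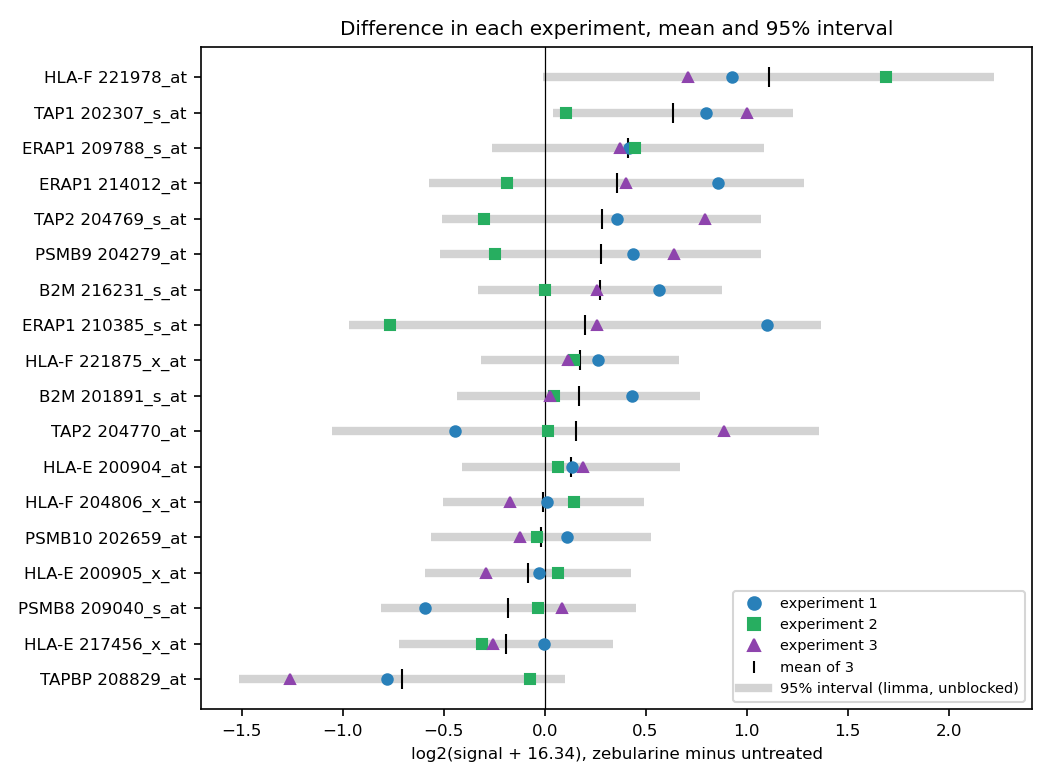
Log2 difference (zebularine minus untreated) of the 18 tested member probe sets, with 1 symbol per experiment, the mean as a black tick and the unadjusted 95% interval of limma in grey. The interval, from limma without the block, excludes 0 for TAP1 alone (0.04 to 1.23), and experiment 2 lies near 0 for TAP1 and TAPBP. With the experiment as a block, the interval also excluded 0 for TAPBP 208829_at (-1.26 to -0.15) and B2M 216231_s_at (0.003 to 0.545).

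Counted over the list, experiment 3 lay above the share of all tested probe sets in some respects and at or below it in others, and no test separates these counts. The members' 18 log2 differences had medians of 0.31, 0.01 and 0.22 in experiments 1, 2 and 3, against -0.02, -0.02 and 0.02 over all tested probe sets. They were above 0 for 13, 9 and 13 members, against 48.7%, 48.6% and 51% of all tested. The direction was up in all 3 experiments for 6 members, or 33.3% against 20.9%, and down in all 3 for 2, or 11.1% against 21.8%. Among the 6 are 221875_x_at and 221978_at, both of HLA-F. The filter partly fixed the direction of 221978_at, which passed it through its zebularine arrays alone. That probe set is also held in the medians above and in the counts of the next paragraph.

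A difference of over 1.5-fold in either direction was seen for 6, 2 and 6 members (33.3%, 11.1% and 33.3%), against 35.4%, 30.9% and 36.4% of all tested probe sets, so experiment 2 was the one with few. The difference was the highest of the 3 in experiments 1, 2 and 3 for 7, 5 and 6 members, against 31.5%, 34.5% and 34% of all tested. It was the lowest for 2, 8 and 8 members, against 33.5%, 36.6% and 29.9%, with 44.4% of the members in experiment 3. It was the furthest from 0 for 6, 3 and 9 members, against 34.9%, 30.4% and 34.7%, and here experiment 3 held 50% of the members. Measured from the mean of the other experiments, experiments 1, 2 and 3 lay furthest away for 6, 8 and 4 members, against 31.7%, 37.8% and 30.4%.

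**Figure D4:**
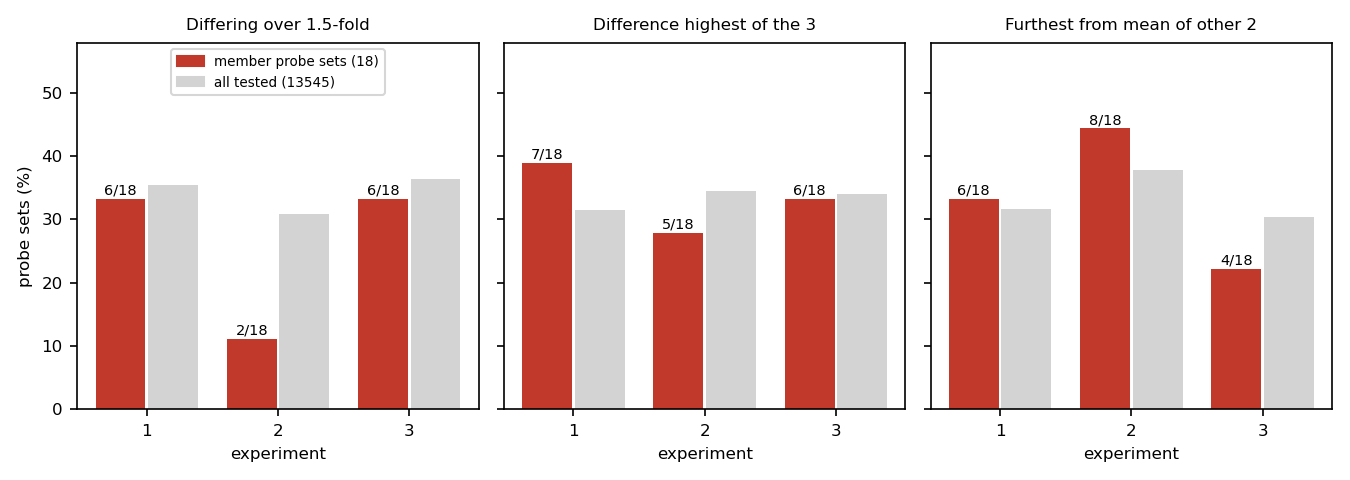
Share of the 18 tested member probe sets (red, with counts) and of all tested probe sets (grey) that differed over 1.5-fold in each experiment, whose difference was the highest of the 3 there, and for which that experiment lay furthest from the mean of the other experiments. Experiment 3 holds 6, 6 and 4 members, and experiment 2 has only 2 over 1.5-fold. HLA-F 221978_at, which passed the filter through its zebularine arrays alone, is among those over 1.5-fold in each experiment.

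The 6 members with their highest difference in experiment 3 were 1 probe set of HLA-E and all 5 tested probe sets of TAP2, PSMB8, TAP1 and PSMB9. These 4 genes lie side by side within 38 kb of chromosome 6 (GRCh38.p14, 32821831 to 32859851). Their probe sets had log2 differences from 0.08 to 1.00 in experiment 3 with a median of 0.79, against medians of 0.36 in experiment 1 and -0.03 in experiment 2. For TAP1 the ratio of zebularine over untreated signal was 1.77, 1.08 and 2.04 in experiments 1, 2 and 3, and for PSMB9 it was 1.37, 0.84 and 1.57. The median over the 5 probe sets was 0.28 with all arrays and 0.03 without experiment 3. The other 13 probe sets had 1 highest and 8 lowest differences in experiment 3, among them TAPBP at -1.26, and medians of 0.26, 0.05 and 0.12 in experiments 1, 2 and 3. These 4 genes were grouped after their values were seen, so the pattern is a description with no test.

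The difference between experiment 3 and the mean of experiments 1 and 2 was fitted for all probe sets. Limma called 0 of 13545 (0%), with 1.56% at an unadjusted p under 0.05 and no member among them. With the experiment as a block it called 0.111% of all tested probe sets and no member, and 4.31% had an unadjusted p under 0.05, again with no member. Experiment 3 has 1 array per group and the intervals given here leave out the pairing, and they were wide. For TAP1 the difference was 0.55 with a 95% interval from -0.82 to 1.92, for 204769_s_at of TAP2 0.76 (-0.92 to 2.45), for PSMB9 0.54 (-0.91 to 2.00), for PSMB8 0.40 (-1.05 to 1.84) and for TAPBP -0.83 (-2.72 to 1.05). The smallest unadjusted p of a member in limma was 0.333 without the block and 0.134 with it. A deviation of experiment 3 in these genes was not detectable with these arrays, and the intervals still hold differences of over 1 on the log2 scale.

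**Figure D5:**
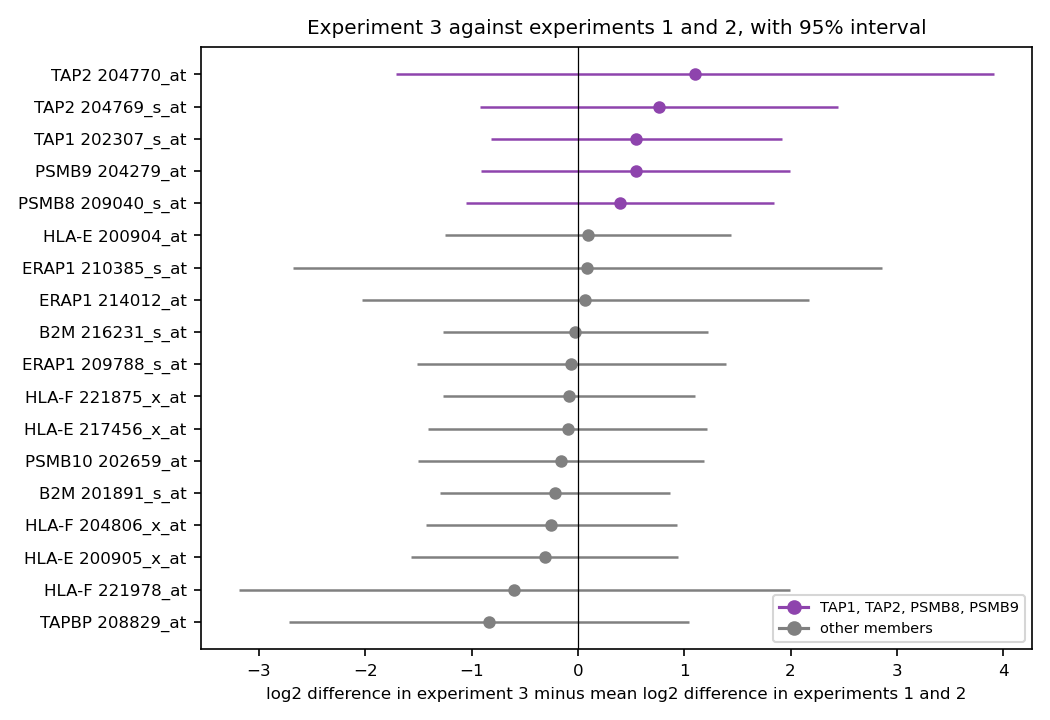
Log2 difference in experiment 3 minus the mean log2 difference in experiments 1 and 2 for the 18 tested member probe sets. Bars are unadjusted 95% intervals of limma without the block. Purple marks TAP1, TAP2, PSMB8 and PSMB9, grey the other members. The 5 purple points are the highest of the 18, and all 18 intervals include 0.

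Other genes of the pathway, in 4 lists, gave no call in limma with or without the block. Over all tested probe sets the shares called were also small, 0.62% without the block and 4.22% with it. Of the class I heavy chains and class I-like genes 7 of 10 were tested, with 4 differences above 0 and 3 below and a median of 0.13. The classical chains HLA-C and HLA-B, at probe sets that can bind related transcripts, averaged 14580 ± 2083 with zebularine and 16896 ± 3792 without, and 11041 ± 1896 with and 11545 ± 2036 without (SD, n = 3; limma, adjusted p = 0.797 and 0.942). Named after its values were seen, the stress ligand gene MICB read 408, 312.8 and 799.5 with zebularine, against 205.9, 261.5 and 276.9 without, the groups separated and experiment 3 the highest (log2 difference 0.88 ± 0.34; adjusted p in limma = 0.308, or 0.0972 when blocked by experiment).

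Of the peptide trimming and loading partners 10 of 11 were tested, with 5 above and 5 below 0 and a median of 0.03. The chaperones HSPA5 and CANX had log2 differences of 0.12 ± 0.28 and 0.06 ± 0.23 (limma, adjusted p = 0.89 and 0.944). A pair of genes was named after their values were seen. ERAP2, a trimming peptidase related to ERAP1, read 1398.9, 1152.5 and 1128 with zebularine, against 598.6, 872.1 and 733.2 without, with no overlap (log2 difference 0.74 ± 0.25; adjusted p in limma = 0.251, or 0.0957 when blocked by experiment). CALR (calreticulin), a chaperone of the loading complex beside tapasin, read 1636.7, 1269 and 637.4 with zebularine, against 2836.9, 1276.2 and 2993 without. As for TAPBP, its difference was close to 0 in experiment 2 and lowest in experiment 3 (-0.79, -0.01 and -2.20 in experiments 1, 2 and 3; adjusted p in limma = 0.307, or 0.105 when blocked by experiment). For CALR, experiment 3 lay 1.80 below the mean of experiments 1 and 2 on the log2 scale (-1.80). With 1 array per group and a gene picked from its values, this is a description only. Its probe set 214315_x_at is of the type that can bind related transcripts.

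Of the constitutive proteasome core, activators and assembly factors 19 of 21 were tested, with 14 above 0, 5 below and a median of 0.11. The brightest were PSMA2, an alpha ring subunit, at 0.18 ± 0.29, and POMP, the assembly factor, at 0.38 ± 0.27 (limma, adjusted p = 0.846 and 0.606). Of the interferon signalling genes and class I regulators 20 of 27 were tested, with 7 above 0, 13 below and a median of -0.08. IRF1, a factor that binds the interferon-stimulated response element, averaged 319 ± 11.5 with zebularine and 337 ± 181 without (SD, n = 3), with differences of -0.76, 0.86 and 0.07 in the 3 experiments (limma, adjusted p = 0.969).

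The brightest of that list were the kinase gene JAK1, at 2969.3, 2122.2 and 3062 with zebularine against 3611.5, 4223.2 and 4620.8 without (log2 difference -0.62 ± 0.25; adjusted p in limma = 0.322, or 0.085 when blocked by experiment), and the receptor gene IFNGR2 at -0.51 ± 0.35 (limma, adjusted p = 0.588). JAK1 was lower in all 3 experiments with no overlap between groups. The related kinase gene JAK2, named after its values were seen, lay the other way, also with no overlap. It read 152.9, 125.3 and 226.7 with zebularine, against 113.3, 32.6 and 60.6 without. The log2 difference was 1.19 ± 0.48 (adjusted p in limma = 0.33, or 0.15 when blocked by experiment). The untreated values of 32.6 and 60.6 lay under the filter, so JAK2 passed it only with the help of its zebularine arrays. The filter thus partly fixed its direction, and its values are given as a description. IRF9, named after its values were seen, which completes the complex that type I interferon activates, read 309.3, 334.2 and 580.2 with zebularine, against 300.3, 335.1 and 293.3 without. Its zebularine array of experiment 3 held the highest value of the 6, while the untreated array of experiment 3 held the lowest (limma, adjusted p = 0.7).

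Across the 6 arrays, the mean standardised log2 level of the 10 members, each by its brightest probe set, was 0.16, 0.095 and 0.26 on the zebularine arrays and -0.40, -0.055 and -0.064 on the untreated arrays of experiments 1, 2 and 3. Among 7928 other tested genes the profiles most like it were those of TRIM27, BAG3, MEF2C, SRD5A1 and TOB1, with Pearson correlations over 6 arrays from 0.98 to 0.99. None was called in limma without the block, and SRD5A1, a steroid reductase gene, was called with it (log2 difference 0.98; adjusted p in limma = 0.168, or 0.0334 when blocked by experiment). With so many genes and 6 arrays, high values of this kind arise easily.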

How the data were processed

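The deposited values are linear intensities, 1 MAS5 signal per probe set and array, which the authors made with MAS5 per the submitters' processing notes. The sources used here do not give its version or settings. Each array averaged close to 500 between its 2nd and 98th percentile, and nothing was normalized again. The scale was log2(signal + 16.34), with a pseudocount of the overall median over 8, which understates fold changes of dim genes. The filter of 78.6 is the 40th percentile, and 62 control probe sets were left out. Limma 3.58.1 (R 4.3.3) was fitted on all 13545 tested probe sets, with lmFit and a trended eBayes, two-sided p-values and Benjamini-Hochberg adjustment over all of them. Experiment 3 was set against experiments 1 and 2 by a treatment by experiment term. Arrays with the same number carry 1 experiment name in the labels, and their deviations from the group means correlated at 0.323, 0.21 and 0.272, so the numbers pair them. The fits without the block were tested on simulated data whose noise held no effect shared by the arrays of an experiment. There they returned the true differences on average but called few small changes. With the noisier of 2 settings the test of experiment 3 called none, so a lack of calls carries little weight. The fit with the block was not simulated. Figures were drawn with matplotlib 3.10.9.

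Members and lists were chosen with earlier results of these data known. All member probe sets are named, and of each list up to 4 called genes or else its 2 brightest, plus IRF1, PSMB5, PSMB6, PSMB7 and the 5 genes most like the members; 1 gene of this rule is not reported here. Precision is limited by having 6 arrays.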

Additional observations from a re-analysis of the deposited data

How the results depend on the processing

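No member probe set was called by limma in any of 16 alternatives to the comparison of zebularine with untreated arrays: the experiment as a replicate block (0 called), a smaller or larger pseudocount, no filter, quantile normalization, no mean-variance trend, probe sets averaged per gene, each array left out, and each experiment left out. Nor was one called in 11 alternatives for experiment 3 against the others, where the replicate block also gave 0; leaving out an array of experiment 3 could not be fitted there. In several of the 16 alternatives few of all tested probe sets were called, so a lack of member calls there carries little weight. Limma called 0 without zebularine replicate 2 or without experiment 2, 3 without experiment 3, and 6 without the mean-variance trend. It called 84 before any of these changes and 572 with the block. The block changed no call of the members or the 4 pathway lists. The median log2 difference over the members, 0.17, ran from 0.073 to 0.36 when an array or an experiment was left out; it was 0.36 without untreated replicate 2 and 0.073 without untreated replicate 3. Of 270 values of single probe sets, 249 kept their direction and 21 reversed, in 8 probe sets and only when an array or experiment was left out. With arrays left out, the difference ran from -0.19 to 0.021 for 200905_x_at of HLA-E, -0.081 to 0.097 for 204806_x_at of HLA-F, -0.0086 to 0.57 for 204769_s_at and -0.21 to 0.63 for 204770_at of TAP2, -0.39 to 0.12 for PSMB8, -0.12 to 0.54 for PSMB9, -0.12 to 0.10 for PSMB10 and -0.47 to 0.69 for 210385_s_at of ERAP1. In the other probe sets it ran from 0.050 to 0.23 for 200904_at and -0.35 to -0.11 for 217456_x_at of HLA-E, 0.099 to 0.23 for 221875_x_at and 0.82 to 1.31 for 221978_at of HLA-F, 0.028 to 0.38 for 201891_s_at and 0.13 to 0.53 for 216231_s_at of B2M, 0.44 to 0.90 for TAP1, -1.19 to -0.43 for TAPBP, and 0.25 to 0.60 for 209788_s_at and 0.11 to 0.63 for 214012_at of ERAP1. The cause was not tested.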
